A study of Mus musculus with 2 samples.

Results

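The 9 genes described here, Meis1, Hlf, Mecom, Prdm16, Hhex, Mllt3, Cd34, Procr and Ly6a, are genes by which blood stem cells are commonly recognised or which they need. They were taken by name from the 21938 protein-coding genes annotated in GENCODE vM21 on chromosomes 1 to 19, X and Y, with no threshold on a measured value. Open chromatin was mapped by DNase-seq, in which the enzyme DNase I releases accessible DNA whose ends are sequenced, in 2 libraries of embryonic mouse liver at day 13.5. Both libraries form 1 group, biological replicates 1 and 2. Their mice were of strain C57BL/6N,129 and carried an LCR deletion together with a HET globin mutation. No unedited control is analysed here. LCR usually stands for the locus control region of the beta-globin genes. The labels do not spell it out, do not give the extent of the deletion, and give the sex as not collected and the same donor identifier for both biosamples. There is therefore no comparison between conditions, and the spread between the libraries is the only measure of error.

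Blood stem cells keep the capacity to renew themselves and to give rise to all blood lineages, and in the mouse the liver is where they expand before birth. They are rare among liver cells, most of which at this stage belong to the red cell lineage, with hepatoblasts, endothelium and other blood cells beside them. In bulk tissue a low signal at a gene can come from few cells with an open site or from a weakly open site in many cells, and these cannot be told apart here. Several of the 9 genes also act in endothelium (Cd34, Procr, Mecom, Hhex) and Hhex also in hepatoblasts.

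Replicate 1 had 47198 peaks and replicate 2 had 36523 peaks in the longer of its deposited lists. Each peak carries a value, the authors' signal, which is a whole multiple of a step of 0.0123 in replicate 1 and 0.0139 in replicate 2. If a step is 1 read in units of CPM, the depth was about 81200000 reads in replicate 1 and 72100000 in replicate 2, and the 95% Poisson intervals in parentheses below rest on that reading and cover counting error only. Overlapping peaks of the libraries were joined into sites, and a site is called shared where both libraries have a peak in it. Over all 28627 shared sites the value was higher in replicate 1 in 83.5% of cases, and the median of the log2 ratio (replicate 1 over replicate 2) was 0.48. No source used here gives the scaling between libraries, so the percentile of a value among all peaks of its own library is given beside it.

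Among the 9 genes, 6 had a promoter peak, defined as a peak within 1 kb of any annotated start, in both libraries (Meis1, Hlf, Prdm16, Hhex, Mllt3 and Cd34). Of all protein-coding genes 54.1% did so, and the count of 6 is near that background. It fell to 3 with the shorter peak lists (Hlf, Hhex and Mllt3, background 48.8%) and to 3 with the upper 50% of peaks (Meis1, Hhex and Mllt3, background 45.8%), and neither of these held Cd34 or Prdm16. Replicate 1 had a promoter peak at 7 of the 9 (background 58.5%), Mecom being the additional gene, and replicate 2 at 6 of the 9 (background 55.4%). Either library had one at these 7 genes (background 59.8%), while Procr and Ly6a had none. Stretches with a listed false discovery rate lay within 1 kb of a start at 7 genes in replicate 1 (background 59.7%), 7 in replicate 2 (56.6%) and 7 in both (55.1%). Starts within 1 kb of the next were counted as 1 group, and of the 26 groups of the 9 genes 7 were open in both libraries, against 27.3% of all groups. For the 6 genes with more than 1 group the count was 6 of 23, against 24.3%. With 1 exception the open promoters were low: the highest promoter peaks of the 6 genes had median values of 1.82 in replicate 1 and 1.43 in replicate 2, while all 11868 promoters open in both libraries had medians of 5.79 and 3.67. The exception was Mllt3.

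**Figure D1:**
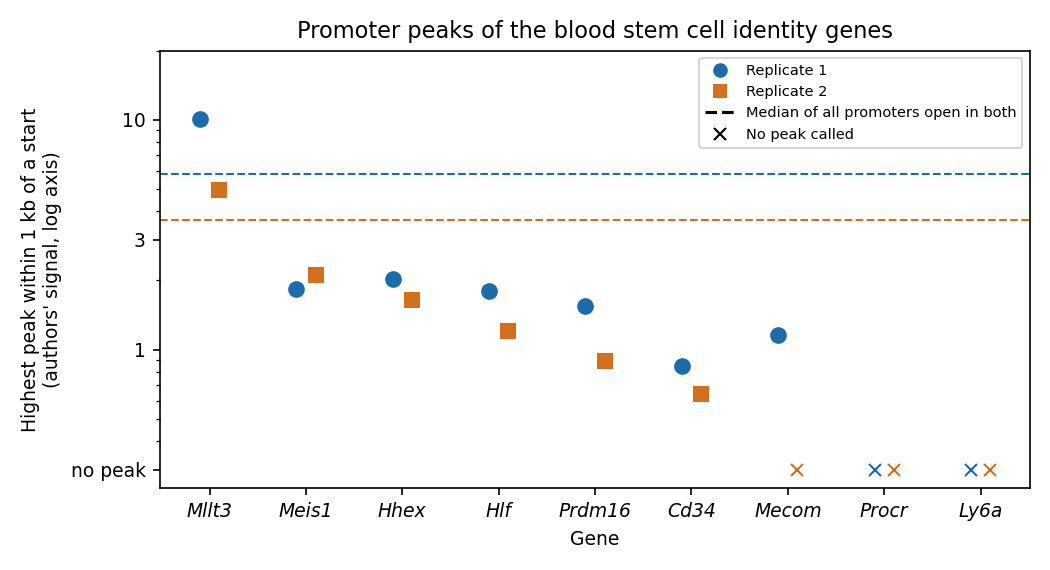
Highest peak within 1 kb of any start of each gene, in the authors' signal on a log axis, for replicate 1 (circles) and replicate 2 (squares). Crosses mark libraries with no peak called, and dashed lines show the median of all promoters open in both libraries (5.79 and 3.67); Mllt3 alone lies above its library's line.

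The sequences of the open sites that the account below turns on are printed first, the shared core of each, that is, the bases covered by the highest peak of both libraries (for Hhex, whose core is longer, 300 bases of it). They are read from the plus strand of GRCm38 (mm10), annotated untranslated bases are left out, and capitals mark bases inside a deposited footprint of either library. Footprints are short stretches protected from DNase I within an open site. The first set holds the promoter sites: Mllt3 at chr4:88033365-88033480, Meis1 at chr11:19018986-19019160, Hlf at chr11:90390896-90391080, Hhex at chr19:37434456-37434755 and the internal start of Prdm16 at chr4:154334761-154334920. Mllt3, Meis1, Hlf and Prdm16 are transcribed from the minus strand.
Mllt3 start: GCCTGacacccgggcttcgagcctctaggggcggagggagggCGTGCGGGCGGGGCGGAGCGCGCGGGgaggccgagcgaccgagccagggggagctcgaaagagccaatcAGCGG
Meis1 start: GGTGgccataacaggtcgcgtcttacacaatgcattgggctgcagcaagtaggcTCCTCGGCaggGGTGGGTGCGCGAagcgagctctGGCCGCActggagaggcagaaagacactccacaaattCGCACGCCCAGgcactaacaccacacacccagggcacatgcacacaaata
Hlf start: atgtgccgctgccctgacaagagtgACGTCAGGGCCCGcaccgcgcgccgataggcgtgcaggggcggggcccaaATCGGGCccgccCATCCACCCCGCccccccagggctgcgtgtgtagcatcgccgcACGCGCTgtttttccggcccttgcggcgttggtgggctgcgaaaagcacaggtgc
Hhex start: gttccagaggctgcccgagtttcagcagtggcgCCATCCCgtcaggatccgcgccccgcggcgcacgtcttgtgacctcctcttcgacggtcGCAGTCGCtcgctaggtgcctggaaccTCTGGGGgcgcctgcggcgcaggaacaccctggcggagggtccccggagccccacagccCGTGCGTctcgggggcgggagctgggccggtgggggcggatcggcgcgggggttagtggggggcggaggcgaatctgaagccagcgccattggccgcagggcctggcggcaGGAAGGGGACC
Prdm16 start: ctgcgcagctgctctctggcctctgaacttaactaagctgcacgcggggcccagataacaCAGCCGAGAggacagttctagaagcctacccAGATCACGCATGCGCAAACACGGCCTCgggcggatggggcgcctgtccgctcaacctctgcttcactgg

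The second set holds the highest shared distal site of 4 genes, distal meaning more than 1 kb from any annotated start of any gene. These are the site upstream of Hlf at chr11:90418081-90418220, the one upstream of Meis1 at chr11:19020452-19020568, the intronic one of Prdm16 at chr4:154541821-154542000 and the one downstream of Ly6a at chr15:74968301-74968500.
Hlf distal: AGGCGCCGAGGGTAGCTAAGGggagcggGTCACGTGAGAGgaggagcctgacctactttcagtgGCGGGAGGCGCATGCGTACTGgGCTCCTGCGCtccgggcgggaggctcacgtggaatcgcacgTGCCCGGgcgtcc
Meis1 distal: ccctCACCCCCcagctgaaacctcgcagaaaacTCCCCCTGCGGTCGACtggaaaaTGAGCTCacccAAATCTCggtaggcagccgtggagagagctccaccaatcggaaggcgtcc
Prdm16 distal: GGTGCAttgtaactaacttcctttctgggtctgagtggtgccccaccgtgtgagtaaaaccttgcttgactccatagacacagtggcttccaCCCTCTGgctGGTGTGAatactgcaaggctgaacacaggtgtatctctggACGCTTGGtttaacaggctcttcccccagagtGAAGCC
Ly6a distal: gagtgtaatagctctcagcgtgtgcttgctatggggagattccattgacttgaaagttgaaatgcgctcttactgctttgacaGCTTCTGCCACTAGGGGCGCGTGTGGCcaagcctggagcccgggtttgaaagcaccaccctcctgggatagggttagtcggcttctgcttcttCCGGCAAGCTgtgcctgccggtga

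Mllt3 encodes AF9, a chromatin reader that recruits elongation factors and is known in human cells to maintain blood stem cells. Its start had the highest promoter peak of the 9 genes, with 10.1 (9.45 to 10.8) in replicate 1 and, in replicate 2, 4.96 (4.46 to 5.50). Among all peaks this placed it at percentiles 93.6 and 89.9, and 73.1% and 67.8% of all promoters open in both libraries were lower. The lowest deposited false discovery rate in this site was 4.38e-91 in replicate 1 and 1.21e-38 in replicate 2. The peak did not stand alone. A run of 3 further shared sites lay within 1 kb of the same group of starts, with 1.37 and 1.23 in replicates 1 and 2 just inside the gene, 0.912 and 0.693 farther in, and 0.752 and 0.471 upstream. The start of the antisense gene Gm12631 lies 1 base from the main site, so the site cannot be given to Mllt3 alone.

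Mllt3 was also open far inside the gene. A shared site at a later group of starts of protein-coding transcripts, about 227 kb into the gene (87806148 to 87806540), had 1.38 and 1.10 in replicates 1 and 2. An intronic shared site at 102 kb (87930841 to 87931100) had 0.764 and 0.762. Both were near or under the median height of all peaks, which was 1.23 in replicate 1 and 1.25 in replicate 2. Of the 3 groups of starts of Mllt3, 2 were open in both libraries.

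The Mllt3 core printed above matched the SP pattern GGGCGG 3 times, and 2 of these matches touched footprints of both libraries. Windows of the same length held GGGCGG at least once in 40.9% of all shared sites near starts. Such comparison windows, here and below, lay at the centre of each site and kept untranslated bases, unlike the printed cores. Of the printed 116 bases, 26 lay in footprints of both libraries, the largest number among the 5 promoter cores printed.

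Meis1, a homeobox partner of HOX proteins that blood stem cells need, had a single open group of starts out of 3. The site at its most 5′ starts had a value of 1.84 (1.55 to 2.16) in replicate 1, and in replicate 2 of 2.12 (1.80 to 2.48), at percentiles 64.3 and 69.5. It was higher in replicate 2, unlike most shared sites. Only 5.29% of the shared sites of like height had a lower ratio of replicate 1 to replicate 2. A shared site upstream (19020381 to 19020660), 1396 bases from the nearest start, had 1.98 (1.69 to 2.32) and 1.34 (1.09 to 1.64). In replicate 1 it was about as high as the promoter. In replicate 2 it was lower, and the counting intervals do not overlap. Its printed core held 1 match each to the E-box CAGCTG, the ETS pattern CGGAAG and the KLF pattern CCNCACCC, of which the KLF match touched a footprint. The 139.2 kb body of Meis1 held no other site, and beyond its 3′ end a shared site of 0.752 and 0.762 (18877748 to 18877998) stood beside 2 sites called in replicate 1 alone, of 0.505 and 0.628.

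Hlf encodes a bZIP factor of the PAR family that marks blood stem cells and helps keep them quiescent. Its promoter site had a value of 1.80 (1.52 to 2.12) in replicate 1, and in replicate 2 of 1.21 (0.966 to 1.49). In replicate 2 another peak of 0.527 was called 117 bases from a start. The site farther upstream was higher: 27046 bases from the start (90417941 to 90418260), it had 3.73 (3.32 to 4.18) and 1.62 (1.34 to 1.94), at percentiles 80.0 and 60.6. In both libraries this was the highest distal site of all 9 genes, and the counting intervals do not overlap those of the Hlf promoter in replicate 1, while they do in replicate 2.

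The upstream site of Hlf overlapped no annotated gene, and the nearest start of another gene, that of the pseudogene Gm11511, lay 99056 bases away. Its core held 15 CpG in 140 bases, a number reached by 2.18% of windows of that length in shared distal sites and by 30.7% in shared sites near starts. It also held the word GCATGCG, on both strands at 1 place, touching footprints of both libraries. CACGTG, which reads the same on both strands, was held at 3 places, 2 of them touching a footprint. The GCATGCG word occurs at least once in 1.40% of shared distal windows of this length, and CACGTG at least once in 3.68%. These words were looked for after the sequences had been seen. Of the 140 bases, 31 lay in footprints of both libraries.

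Mecom encodes the zinc finger factor EVI1 and its longer form, which blood stem cells need. Of its 7 groups of starts none was open in both libraries. The site nearest to the second group of starts (30508225 to 30508588), which includes protein-coding transcripts, was shared, with 1.16 (0.936 to 1.42) and 1.03 (0.805 to 1.29). The peak of replicate 1 in it lay 899 bases from a start and so counted as a promoter peak, whereas that of replicate 2 lay just beyond 1 kb and did not. At the most 5′ start (30548008) neither library had a peak, nor any stretch with a listed false discovery rate within 1 kb. In the 597 kb body and its flanks the other sites were low or called in 1 library, with 0.308 and 0.542 in replicate 1 alone and 0.513 and 0.582 in replicate 2 alone, and no distal site was shared.

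Prdm16 encodes a zinc finger factor related to EVI1 that maintains blood stem cells and, elsewhere, brown fat. Its most 5′ starts had no peak in replicate 1 and 1 of 0.873 (0.671 to 1.12) in replicate 2, 837 bases from the start. Replicate 1 had 26 bases there with a listed false discovery rate, the lowest being 0.0392, without a peak. The start with a peak in both libraries was a downstream one, about 302 kb into the gene, annotated for non-coding transcripts only. There the site had a value of 1.55 (1.29 to 1.85) in replicate 1, and in replicate 2 of 0.887 (0.683 to 1.13). The start of another protein-coding gene, B230104I21Rik, lies 1147 bases from this site. Of the 12355 genes with more than 1 group of starts, 7.31% were likewise open in both libraries at a later group and not at the most 5′ one. The core at this internal start held the GATA pattern AGATAA and the E-box CAGCTG, both outside footprints. It also held GCATGCG at 1 place, touching footprints of both libraries. GATA patterns (AGATAA or TGATAA) occur in 5.13% of shared windows of this length near starts and in 20.2% of distal ones, and GCATGCG in 3.87% and 1.56%. The GCATGCG word was looked for after the sequences had been seen.

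Prdm16 had more distal sites than any other of the 9 genes. Of its 11 distal sites 5 were shared, a number reached by 4.67% of all protein-coding genes, though its 321 kb body gives a wide window. The highest, about 94.9 kb into the gene (154541681 to 154542180), had 1.93 (1.64 to 2.26) and 1.40 (1.14 to 1.70), at percentiles 65.9 and 54.7. Its printed core held none of the GATA, E-box or RUNX patterns and 1 ETS match, and no base of it lay in footprints of both libraries. The other 4 shared sites had values between 0.604 and 1.12 in replicate 1 and between 0.624 and 0.859 in replicate 2. One of the 4, downstream of the gene (154272943 to 154273250), lies within the gene Megf6.

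**Figure D2:**
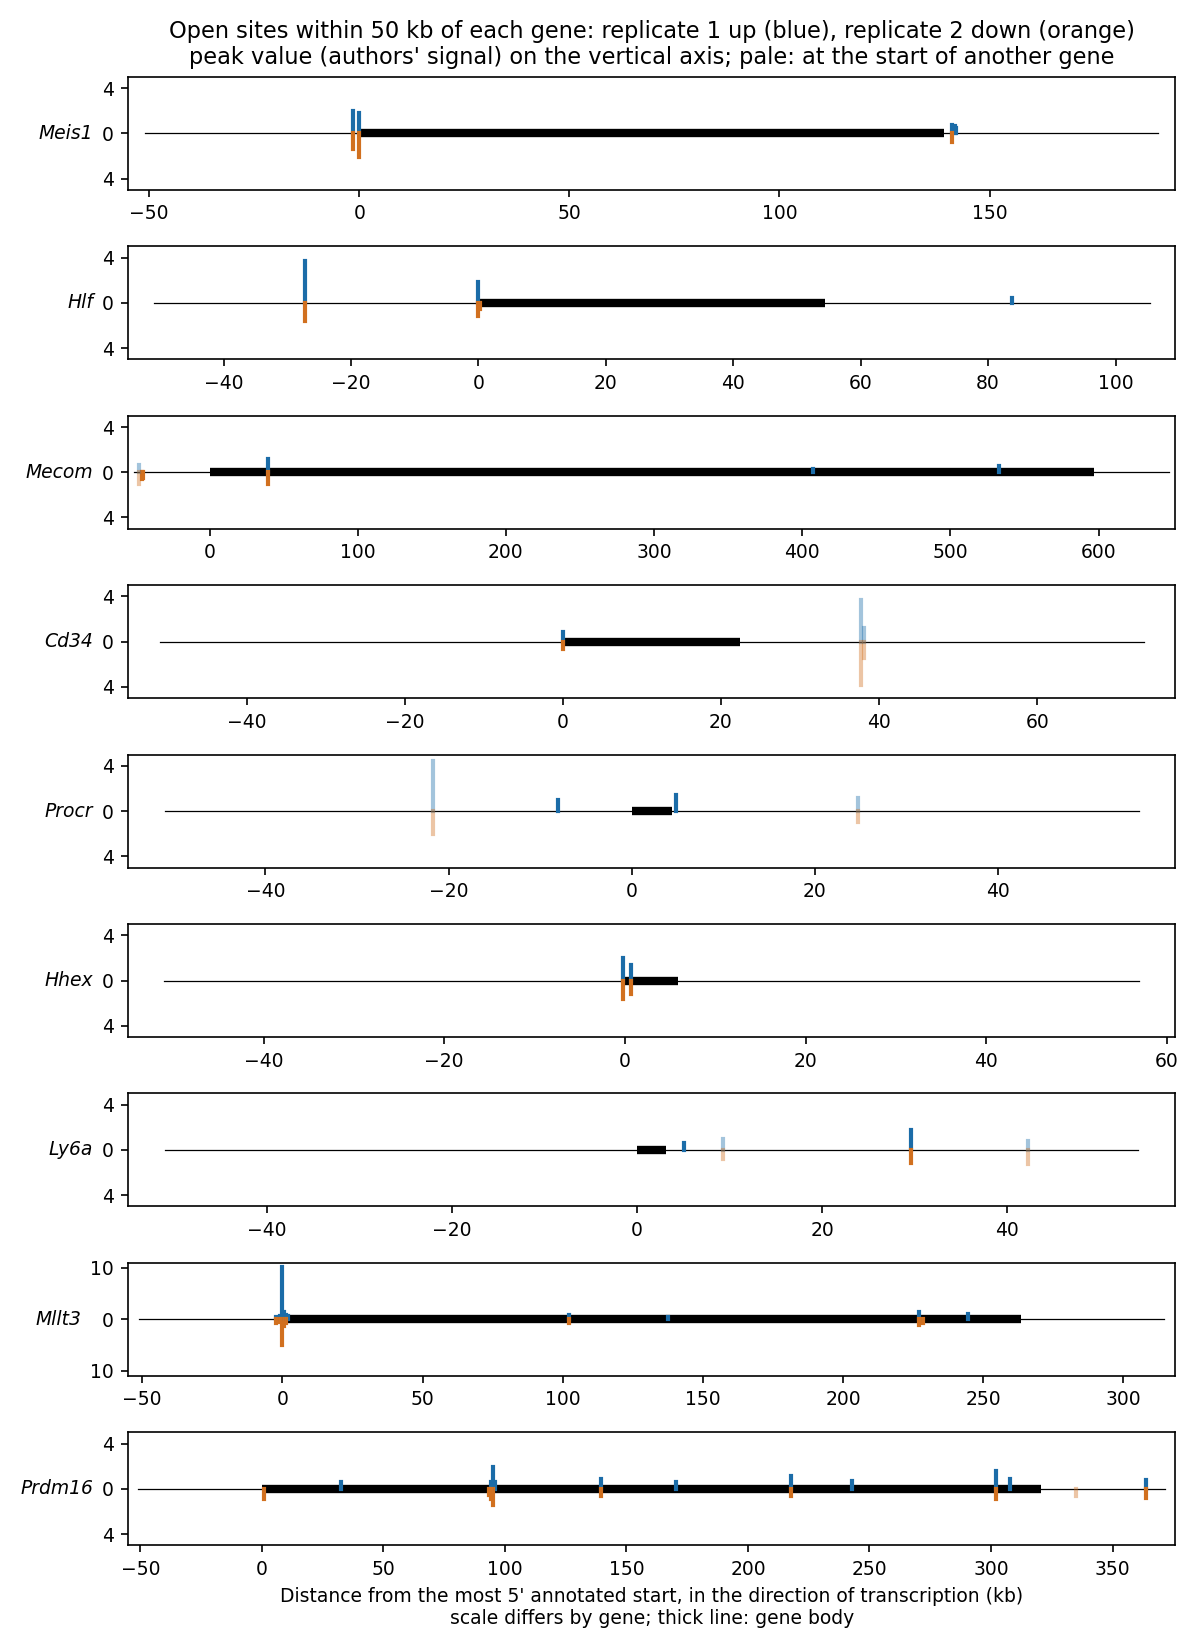
Open sites within 50 kb of each gene, drawn by distance in kb from the most 5′ start in the direction of transcription, with the peak value of replicate 1 upward and that of replicate 2 downward; the thick line is the gene body and pale bars are sites at the start of another gene. Hlf shows its highest site upstream of the gene, Prdm16 is open mainly inside the gene, and Procr and Ly6a show nothing at their own start.

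Hhex encodes a homeobox factor of blood and endothelial progenitors that the liver bud also needs, and these sources cannot be told apart in whole liver. Its start lay in a broad open region with 2 shared sites. The site at the first start (37434181 to 37434920) had a value of 2.03 (1.73 to 2.37) in replicate 1, and in replicate 2 of 1.65 (1.37 to 1.97). The site just inside the gene (37435281 to 37435758) had 1.33 and 1.21. A start of another annotated gene, Gm38345, lies within the first site and 625 bases from the second. Neither site can therefore be given to Hhex alone. The first site held 7 footprints in replicate 1 and 5 in replicate 2, and 2 of the 7 overlapped a footprint of replicate 2. No other site was called in the 50 kb on either side. Among the 6 genes open in both libraries, Hhex and Cd34 were those with no distal site.

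Cd34, a sialomucin on the surface of progenitors and endothelium, had the lowest promoter values of the 6 genes open in both libraries. They were 0.850 (0.662 to 1.08) in replicate 1 and 0.638 (0.467 to 0.851) in replicate 2, at percentiles 34.3 and 17.9, and 6.16% and 4.13% of all promoters open in both libraries were lower. The higher sites near Cd34 lay at starts of other genes. At the starts of the non-coding genes A330023F24Rik and Gm16897, about 38 kb beyond the Cd34 start, a shared site had 3.68 (3.28 to 4.13) and 3.87 (3.43 to 4.35). That site was slightly higher in replicate 2, and 3.30% of the shared sites of like height had a lower ratio of replicate 1 to replicate 2.

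Procr, the endothelial protein C receptor and a surface marker of blood stem cells, had no peak within 1 kb of its starts and no stretch there with a listed false discovery rate in either library. Its distal sites were called in replicate 1 alone. A site 4502 bases from the nearest start, beyond the 3′ end of the gene (155755846 to 155756040), had 1.38 (1.14 to 1.66), and one upstream (155742961 to 155743200) had 1.01 (0.804 to 1.25). Of the bases of the downstream site 64.1% are soft-masked in the reference sequence, that is, marked as repeats, against 8.75% at the upstream site. At the upstream site replicate 2 had 40 bases with a listed rate, the lowest being 0.0349, without a peak. At the downstream site it had none. The shared sites near Procr lay at the starts of Edem2, with 4.41 and 2.01, and of Mmp24, with 1.16 and 0.998.

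Ly6a encodes Sca-1, the surface antigen used to sort mouse blood stem cells. Like Procr, it had neither a peak nor a listed stretch within 1 kb of its starts in either library. Much of the sequence around the Ly6a starts is repeated nearby. Of its 36-base words 47.7% recur within 500 kb of the gene, against 4.65% for Procr and under that for the other 7 genes. Whether the copies lie in other Ly6 genes was not tested. No source used here says what was done with multiply matching reads, so the missing peak at Ly6a does not show a closed promoter. A distal site 4662 bases from the nearest Ly6a start was called in replicate 1 alone, with 0.653. The nearest shared site (74988541 to 74988840), 8794 bases away, lay at the start of another annotated gene, Gm37042, with 0.986 and 0.762 in replicates 1 and 2. A distal site farther downstream of Ly6a (74968301 to 74968520), 29114 bases from the nearest start, was shared, with 1.80 (1.52 to 2.12) in replicate 1 and 1.14 (0.904 to 1.41) in replicate 2. It lay closer to Ly6e, whose start was 11746 bases away. Its core held 1 match to a shortened pattern of the insulator protein CTCF, touching footprints of both libraries. The shortened pattern, too, was looked for after the sequence had been seen, and occurs in 11.5% of windows of this length in shared distal sites. The full CTCF pattern matched in none of the 200-base windows at the centre of the 30 shared sites of the 9 genes, against 8.28% of all shared sites and 17.5% of the distal ones.

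Ordered by the mean percentile of the promoter peak over both libraries, Mllt3 (91.8) came first, followed by Meis1 (66.9), Hhex (64.3), Hlf (56.0), Prdm16 (46.3) and Cd34 (26.1). Mllt3 stood apart, with its lower percentile of 89.9 above the higher of Meis1, 69.5. All further neighbours in this order overlapped: the range over both libraries was 64.3 to 69.5 for Meis1, 61.2 to 67.3 for Hhex, 48.3 to 63.7 for Hlf, 33.9 to 58.7 for Prdm16 and 17.9 to 34.3 for Cd34. These ranges mix the libraries, and within each library Hhex, Hlf, Prdm16 and Cd34 kept this order. Meis1 and Hhex changed places between libraries.

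CpG content set the genes apart too, a property that the choice of genes did not use. The ratio of observed to expected CpG within 500 bases of a start, at its highest over the starts of the gene, was 0.485 for Cd34, 0.486 for Procr and 0.0875 for Ly6a, and 0.659 (Mecom) to 0.991 (Prdm16) for the other 6 genes. The surface protein genes thus all lay under 0.6 and the regulators above it. Of all genes with a ratio of at least 0.6, 85.3% had a promoter peak in both libraries, and of those under it 19.6%. Of the 9 genes, 5 of 6 with the higher ratio and 1 of 3 with the lower ratio did. For Prdm16 the ratio of 0.991 belongs to its most 5′ starts. Its internal start, open in both libraries, had 0.613.

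The 9 genes had 53 sites within 50 kb, of which 30 were shared, 16 were called in replicate 1 alone and 7 in replicate 2 alone. These are 56.6%, 30.2% and 13.2%, against 55.5%, 32.4% and 12.2% of all 51618 sites. Of the shared sites 12 lay at a start of the gene itself, 7 at a start of another gene and 11 were distal. The mean was 1.22 shared distal sites per gene, against 1.21 over all protein-coding genes, and 5 of the 9 genes had at least 1, against 54.5% of all genes. Per 100 kb of window the 9 genes had 0.476 shared distal sites, and all genes had 0.815. The comparison with all genes turned with the rule. Within gene bodies the mean was 0.556 per gene, against 0.257 over all genes. With a 50% overlap of both peaks it was 0.444, against 1.01. The gene-body means are not adjusted for gene length. The 5 shared distal sites there lay in Prdm16 and Mllt3, whose bodies span 321 and 263 kb. The single-library distal sites were lower, with medians of 0.641 for the 15 of replicate 1 and 0.561 for the 4 of replicate 2, against 0.875 and 0.846 for the shared ones.

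**Figure D3:**
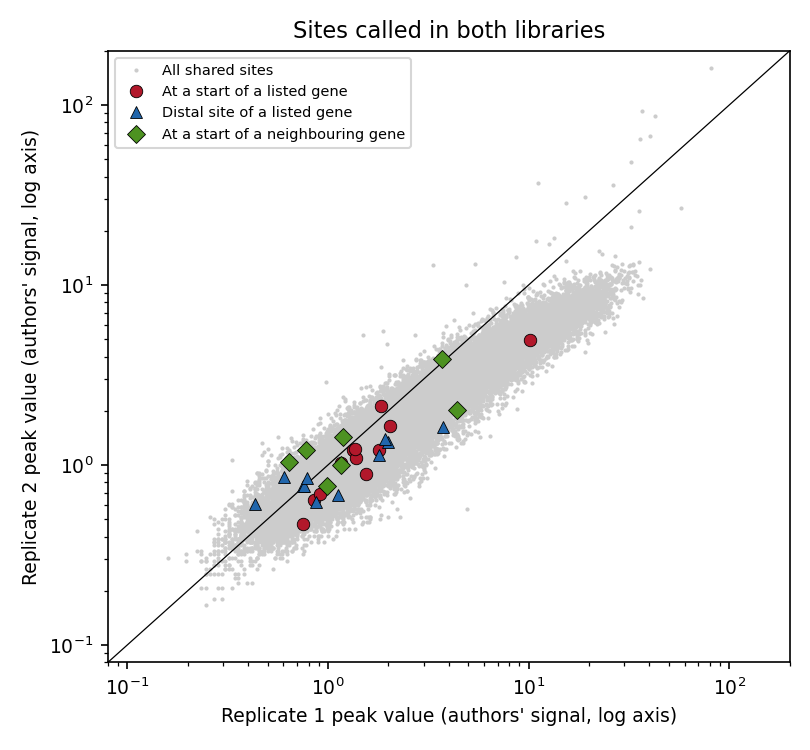
Value of each shared site in replicate 1 (horizontal) and replicate 2 (vertical), in the authors' signal on log axes with the line of equal values. Grey points are all 28627 shared sites and coloured symbols the 30 of the 9 genes, which lie mostly toward the low end of the cloud; 21 of the 30 are higher in replicate 1.

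Between libraries the sites of these genes moved much as other sites did. Their median log2 ratio of replicate 1 to replicate 2 was 0.32, against 0.48 over all shared sites. Set against the 500 sites on either side in the order of height, their median difference was -0.05. The site at the start of 1600017P15Rik near Mecom (0.641 and 1.04 in replicates 1 and 2) and that at the start of Ly6e (0.776 and 1.21) were the 2 of 30 outside the central 95% of sites of like height, both to the side of replicate 2.

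Footprints were found in both libraries in 9 of the 12 shared sites at the genes' own starts, against 80.2% of all shared promoter sites, and in 6 of the 11 distal ones, against 75.7%. Within the 30 shared sites replicate 1 had 73 footprints and replicate 2 had 69, and 22 of the 73 (30.1%) overlapped a footprint of replicate 2, against 46.9% of the replicate 1 footprints in all shared sites, which were not matched for height. In 200-base windows at the centre of these sites, GATA patterns (AGATAA or TGATAA) were found in 4 of 30 (13.3% of all shared sites hold them) and TAL1-type E-boxes (CAGCTG or CAGATG) in 5 (23.1%). ETS patterns (AGGAAG or CGGAAG) were found in 10 (35.2%), RUNX (TGTGGT) in 2 (11.1%), MEIS (TGACAG) in 4 (12.5%), KLF (CCNCACCC) in 8 (13.7%) and SP (GGGCGG) in 13 (39.1%). None held the HLF patterns TTACGTAA, TTATGTAA or TTACATAA, which occur in 0.353% of all shared sites, or the NFE2 and AP-1 pattern TGACTCA (3.45%). The GCATGCG word was found in 4 of 30 (3.43%), at the distal site of Hlf, the internal start of Prdm16 and 2 sites of Mllt3. Unlike the patterns before it, this word was chosen after the printed sequences had been seen. The Hlf and Prdm16 cores were among them, so its count cannot be weighed against the background. MYB patterns (CAACNG) were in 5 (25.4%) and NFY patterns (CCAAT) in 9 (23.5%), while the STAT and NRF1 patterns were in none (4.28% and 0.964%). Both strands were searched throughout.

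Other genes of stem and progenitor cells were counted in the same way. Of 30 such genes, 13 had a promoter peak in both libraries, 19 in replicate 1 and 13 in replicate 2, against backgrounds of 54.1%, 58.5% and 55.4%. The highest were Lyl1, a blood transcription factor (17.7 in replicate 1 and 7.17 in replicate 2), its relative Tal1 (7.50 and 4.82) and Ctnnal1, a catenin-like gene used to mark blood stem cells (8.11 and 3.84). The SLAM family gene Cd48, the adhesion gene Esam and the ETS factor gene Fli1 were among the 11 with none. Over all 30 genes the mean was 2.27 shared distal sites per gene and the median 1, against 1.21 and 1 over all protein-coding genes. Paralogs of the 9 genes were open in 5 of 10 cases, and 2 of them, Tef and Mllt1, were higher than Mllt3 in both libraries. Tef, of the same bZIP family as Hlf, had 14.6 and 7.89, Mllt1, the paralog of Mllt3, 14.7 and 7.17, and Dbp, another PAR factor, 11.9 and 3.81, whereas Meis3, Ly6c1 and Ly6c2 had no peak.

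**Figure D4:**
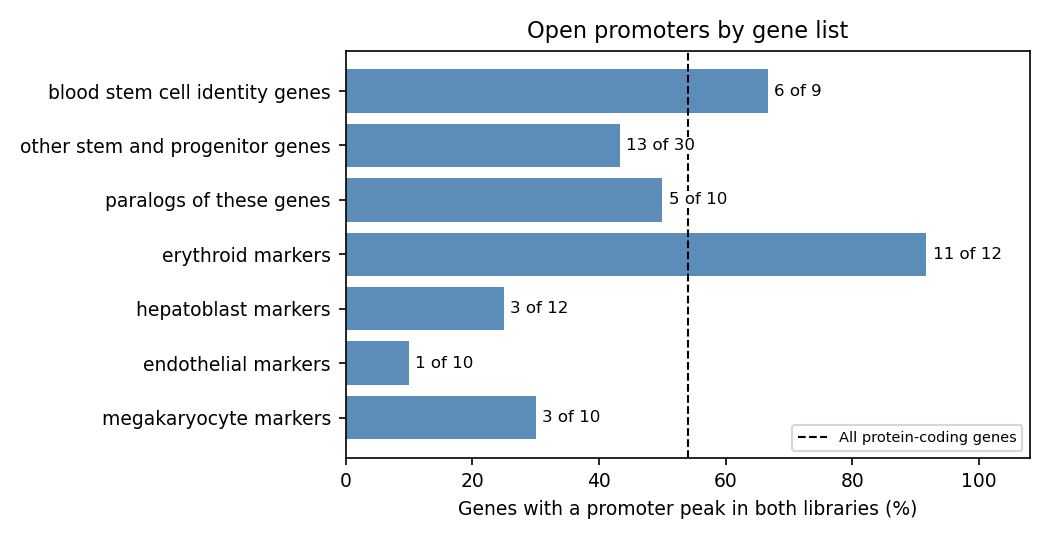
Share of genes with a promoter peak in both libraries, in percent, for the 9 genes and 6 other lists, with counts beside the bars; the dashed line is the share of all protein-coding genes, 54.1%. The erythroid list lies highest, with 11 of 12, and the endothelial list lowest, with 1 of 10.

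Markers of the other cell types in the tissue were measured the same way. Erythroid markers were open in both libraries in 11 of 12 cases, the highest being Zfpm1 (26.8 and 12.2 in replicates 1 and 2), Tfrc (18.1 and 7.46) and Nfe2 (17.9 and 6.72). Hepatoblast markers, which belong to the labelled tissue, were open in 3 of 12. These were Foxa3 (9.41 and 4.33), Cebpa (3.06 and 2.16) and Afp (1.15 and 0.624), and no peak was called at Alb or Apoa2. Of 10 endothelial markers, Kdr was open in both libraries (0.887 in replicate 1, 0.693 in replicate 2), and no peak was called at Eng, Emcn or Cdh5. Megakaryocyte markers were open in 3 of 10, namely Itga2b (9.96 and 4.59), Vwf (2.88 and 1.41) and Itgb3 (1.01 and 0.846), and none was called at Gp6, Gp9 or Mmrn1. The part of these cell types in the signal at Cd34, Hhex and the other genes was not tested.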

How the data were processed

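DNase-seq of 2 libraries of day 13.5 mouse embryo liver was used. The authors derived all files from each library's own filtered alignments to mm10, per the deposited file listings. No source used here names the peak caller or its settings. The peak value is the deposited signal. The deposited false discovery rate (a q-value, a kind of p-value) lists stretches under 0.05. The deposited footprint score is a constant 0.01, so only positions were used.

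The longer list of each library was used on chromosomes 1 to 19, X and Y, with GENCODE vM21 genes, starts of all transcripts, and RefSeq's GRCm38.p6 sequence. Peaks overlapping by at least 1 base formed sites. Promoter peaks lay within 1 kb of a start and distal sites over 1 kb from any start and within 50 kb of the gene. Python 3.11.15, pandas 2.3.3 and pysam 0.24.0 were used, and the interval functions were tested on simulated data. No test was made, since there is 1 group and lists are described by counts beside all genes. All 9 genes are named, with their highest sites; of other lists, at most 3 genes with the highest promoter peaks, and at most 3 without a peak, first in the alphabet; 1 gene under this rule is not reported here. The genes and lists were chosen with earlier results of these data known, and 3 motif words after the sequences were seen. Alternatives comprised other peak sets (the shorter list, or the upper 50% of peaks), other distances, starts, overlaps and footprint rules, and each library alone.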

Additional observations from a re-analysis of the deposited data

How the results depend on the processing

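With the shorter lists 3 of the 9 genes (Hlf, Hhex and Mllt3) had a promoter peak in both libraries, against 48.8% of all genes, and with the upper 50% of peaks 3 (Meis1, Hhex and Mllt3), against 45.8%. The shared distal sites then numbered 4 (0.444 per gene, against 0.653 over all genes) and 3 (0.333 against 0.576), and promoter sites with a footprint in both libraries 4 of 6 and 3 of 3. Shared distal sites were 5 within the gene bodies (0.556 per gene, against 0.257, not adjusted for gene length). They were 4 where both peaks had to overlap by 50% (0.444 against 1.01). With replicate 1 alone 7 genes had a promoter peak (58.5% of all genes), and distal sites numbered 26 (2.89 per gene against 2.19). Promoter sites with a footprint were then 9 of 13, and 19 of the 30 other stem and progenitor genes had a promoter peak. With replicate 2 alone 6 genes had one (55.4% of all genes), and distal sites numbered 15 (1.67 per gene against 1.46). Promoter sites with a footprint were then 11 of 14, and 13 of the 30 other stem and progenitor genes had a promoter peak. The footprint counts under these alternatives have no share over all sites beside them. With starts of protein-coding transcripts only, Prdm16 lost its call, leaving 5 genes (52.9% of all genes). Within 2500 bases Mecom was added, making 7 (56.1% of all genes). The median ratio between libraries lay between 0.32 and 0.51 under all alternatives run. No paired analysis was possible because the libraries form 1 group. The depth of these libraries is known only if a value step is read as 1 read. A peak absent from a list was not detected at this depth and is not shown to be closed.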
